A study of Homo sapiens with 22 samples.

Results

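The brush border enzymes of the proximal tubule were followed as a set of 8 genes, ANPEP, DPP4, GGT1, MME, ENPEP, ALPL, ACE and DPEP1, in a deposited expression table of 36859 genes and 22 RNA-seq libraries. The genes are a set given by name, enzymes of the apical surface. Of the 8, 5 (ANPEP, DPP4, GGT1, MME and ALPL) had 10 or more normalized counts in 2 or more libraries and were among the 14585 genes tested, whereas ENPEP, ACE and DPEP1 were not. A normalized count is here the number of fragments given to a gene after division by a library's size factor, recovered from deposited log2 values.

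All libraries came from RPTECs, human renal proximal tubule epithelial cells immortalized with hTERT, in 11 groups of 2 replicates. The groups in 2% serum were 5 and held wild-type cells (WT), WT cells treated over 72 h with TGF-β at 10 ng/ml, the knockout clones KO1 and KO2 with frameshifts in SETD2, and a group labelled as a rescue of KO2. KO1 and KO2 are each 1 clone made with CRISPR, so the knockout and other properties of the clone cannot be told apart. The 6 groups in 10% serum and regular medium held Rescue1 and Rescue2, each 1 blasticidin-selected clone of knockout cells carrying lentiviral FLAG-tagged full-length SETD2, and puromycin-selected bulk WT cells carrying eGFP, SOX2, OCT2 or PRRX1. SETD2 is the methyltransferase that trimethylates lysine 36 of histone H3. The sources used here do not say whether the replicates were separate cultures, so p-values measure the spread between these libraries, which may be technical.

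The brush border is the carpet of microvilli on the apical side of the proximal tubule cell, and its membrane is crowded with enzymes whose active sites face the filtrate. Together they trim filtered peptides from either end, split glutathione and dipeptides and remove phosphate groups, so that transporters in the same membrane can take up the products. Several of them, such as neprilysin and aminopeptidase N (CD10 and CD13), are also surface markers outside the kidney, on stromal and blood cells among others, and their presence alone does not name a cell.

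The members lie on 8 chromosomes of GRCh38, each annotated by GENCODE as a protein-coding gene. ANPEP (ENSG00000166825, aminopeptidase N) is at chr15:89784895-89815401 on the minus strand, and ENPEP (ENSG00000138792, the aminopeptidase that takes acidic residues from angiotensin II) is at chr4:110365733-110565285 on the plus strand. DPP4 (ENSG00000197635, the dipeptidyl peptidase that inactivates incretins) is at chr2:161992245-162074394 on the minus strand, and MME (ENSG00000196549, the endopeptidase neprilysin) is at chr3:155024124-155183704 on the plus strand. ACE (ENSG00000159640, which makes angiotensin II) is at chr17:63477061-63498380, DPEP1 (ENSG00000015413, a dipeptidase) at chr16:89613308-89638456, GGT1 (ENSG00000100031, the gamma-glutamyltransferase that opens glutathione breakdown) at chr22:24594811-24629005 and ALPL (ENSG00000162551, tissue-nonspecific alkaline phosphatase) at chr1:21509397-21578410, all on the plus strand. GGT1 has near copies: 63.4% of the 4840 distinct runs of 31 bases in its GENCODE transcripts also occurred in transcripts of 15 other genes or pseudogenes, against 0% for ANPEP and ALPL and 1.08% for DPP4. The 8 near copies in the table that share at least 1% of those runs reached at most 21.9 normalized counts in any library (GGT4P), but the split of reads between GGT1 and its copies is uncertain. The entry with the largest share, ENSG00000286070 at 52.1%, was not analysed here. ACE shared 25.3% of its runs, 22.7% with ENSG00000264813, an entry listed at 0 in all libraries.

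The windows from 250 bases before to 50 bases after the annotated starts of 3 members that differed between groups are shown as the sequence around the starts of ANPEP, DPP4 and MME, with 2 windows for ANPEP because one holds GC boxes and the other none. They are RefSeq sequences of GRCh38.p14 written 5′ to 3′ on the gene's strand, with the GC box GGGCGG, on either strand, in capitals.
ANPEP, upstream start, chr15:89814803-89815102, minus strand: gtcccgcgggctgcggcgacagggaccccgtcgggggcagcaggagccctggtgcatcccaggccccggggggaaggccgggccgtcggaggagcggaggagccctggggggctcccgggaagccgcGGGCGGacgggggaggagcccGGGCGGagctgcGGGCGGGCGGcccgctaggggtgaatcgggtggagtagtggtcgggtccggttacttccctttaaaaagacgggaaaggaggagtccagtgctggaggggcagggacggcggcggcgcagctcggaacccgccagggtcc
ANPEP, downstream start, chr15:89806579-89806878, minus strand: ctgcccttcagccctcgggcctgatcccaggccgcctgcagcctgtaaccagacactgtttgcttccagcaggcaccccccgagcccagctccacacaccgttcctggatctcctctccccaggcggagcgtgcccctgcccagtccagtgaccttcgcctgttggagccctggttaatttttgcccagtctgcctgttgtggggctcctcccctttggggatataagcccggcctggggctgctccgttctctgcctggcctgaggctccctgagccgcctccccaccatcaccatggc
DPP4, chr2:162074166-162074465, minus strand: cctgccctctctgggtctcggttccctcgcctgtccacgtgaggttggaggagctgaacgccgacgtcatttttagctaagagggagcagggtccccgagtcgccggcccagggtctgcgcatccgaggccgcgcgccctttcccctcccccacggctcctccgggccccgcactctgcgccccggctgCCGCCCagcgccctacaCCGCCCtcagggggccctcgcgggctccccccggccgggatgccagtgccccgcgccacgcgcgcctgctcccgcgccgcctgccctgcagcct
MME, first of 4 windows in the table, chr3:155079422-155079721, plus strand: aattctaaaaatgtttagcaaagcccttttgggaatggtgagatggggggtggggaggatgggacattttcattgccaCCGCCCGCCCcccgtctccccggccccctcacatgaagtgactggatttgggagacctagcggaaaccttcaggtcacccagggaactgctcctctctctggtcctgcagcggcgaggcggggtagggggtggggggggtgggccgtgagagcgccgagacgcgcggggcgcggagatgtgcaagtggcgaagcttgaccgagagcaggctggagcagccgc
The upstream ANPEP window held 4 GC boxes, of which the last 2 overlap, and the DPP4 and MME windows held 2 each, overlapping in MME, while the downstream ANPEP window held none. All 8 members matched the promoter table, with 19 windows, of which those of a gene can overlap. GGGCGG was in 8 of these 19 windows and in 45.0% of all 35116 windows. It was thus no more common among the members, and 1 of the 4 MME windows also held none. Of the other motifs searched on both strands, CAGGTG was in 6 of 19 and 20.6%, TATAAA in 4 of 19 and 11.5%, TGANTCA in 0 of 19 and 7.71%, and GTCTAGAC in 0 of 19 and 0.202%. A match describes letters and no binding, and the gene-level values cannot tell the 2 ANPEP starts apart.

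Some properties of the libraries touch the members' values. SETD2 had 1852 and 2061 normalized counts in the WT libraries, 1046 and 1130 in KO1, 1049.8 and 1052 in KO2 and 9764 to 10445 in the rescue clones. The libraries labelled KO2 rescue had 834 and 819.6, below KO2, so their label was not borne out by SETD2 and they are called the labelled KO2 rescue throughout. WT replicate 1 stood apart from WT replicate 2 and lay towards the TGF-β-treated cells. COL1A1, a TGF-β-responsive collagen, had 11919 normalized counts in WT replicate 1, 532 in WT replicate 2, and 46598 and 45007 after TGF-β. Over the 31 genes more than 8-fold higher after TGF-β than in WT replicate 2 and at 500 or more normalized counts, WT replicate 1 lay at a median of 0.293 of the way to the TGF-β mean (quartiles 0.256 and 0.340), while the same measure between eGFP duplicates was 0.000 and 0.004. With the WT libraries exchanged only 6 genes met the limits, and WT replicate 2 lay at 0.435 over them. This measure was chosen after the values were seen. Changes of the members against WT, and of the named list genes where a call ended, are therefore also given without WT replicate 1. Genes that every cell uses were at implausibly low values in parts of the table (EEF2 had a median of 35.5 and POLR2A one of 15.4 normalized counts), so levels are compared only within a gene and a value of 0 means only that the gene was listed at 0. Libraries held about 7622450 to 18819600 fragments, estimated from the size of 1 fragment on the normalized scale.

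The cells held all kidney epithelium markers and 9 of 18 proximal tubule markers. PAX8 was between 1535 and 6561 normalized counts in all libraries and KRT19 between 5686 and 18369, and all 9 kidney epithelium markers passed the level filter. Their sums were 39070 and 43405 in WT, 31380 and 32590 after TGF-β and 17824 to 26983 in the KO clones. They were 41244 to 45469 in the rescue clones and 26557 and 28115 in eGFP cells. In KO1 4 of the 9 were called lower and 1 higher, where 13.1% and 12% of all genes were. In KO2 2 were called lower, where 7.29% of all genes were. The summed proximal tubule markers were at 1000 and 739 normalized counts in WT, 2346 and 2634 after TGF-β, 836 to 1324 in the KO clones and 1537 to 2911 in the rescue clones. SLC22A6, SLC22A8 and HNF4A, the organic anion transporters and a master regulator of the segment, were listed at 0 in all libraries, and the endocytic receptor LRP2 did not exceed 2.29. The summed fibroblast markers ran from 846 to 12452 in WT, 46403 to 47814 after TGF-β, 100073 to 236651 in the KO clones and 830.1 to 1536 in the rescue clones, of which DCN alone gave 94978 to 234809 in the KO clones. Of 5 endothelial markers 4 passed the filter, with sums of 2.66 to 157, of 5 leukocyte markers 2 passed, with sums of 7.33 to 377, and of 7 distal nephron markers 2 passed, with sums of 29.1 to 159. The part of these markers in the members' values was not tested.

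**Figure D1:**
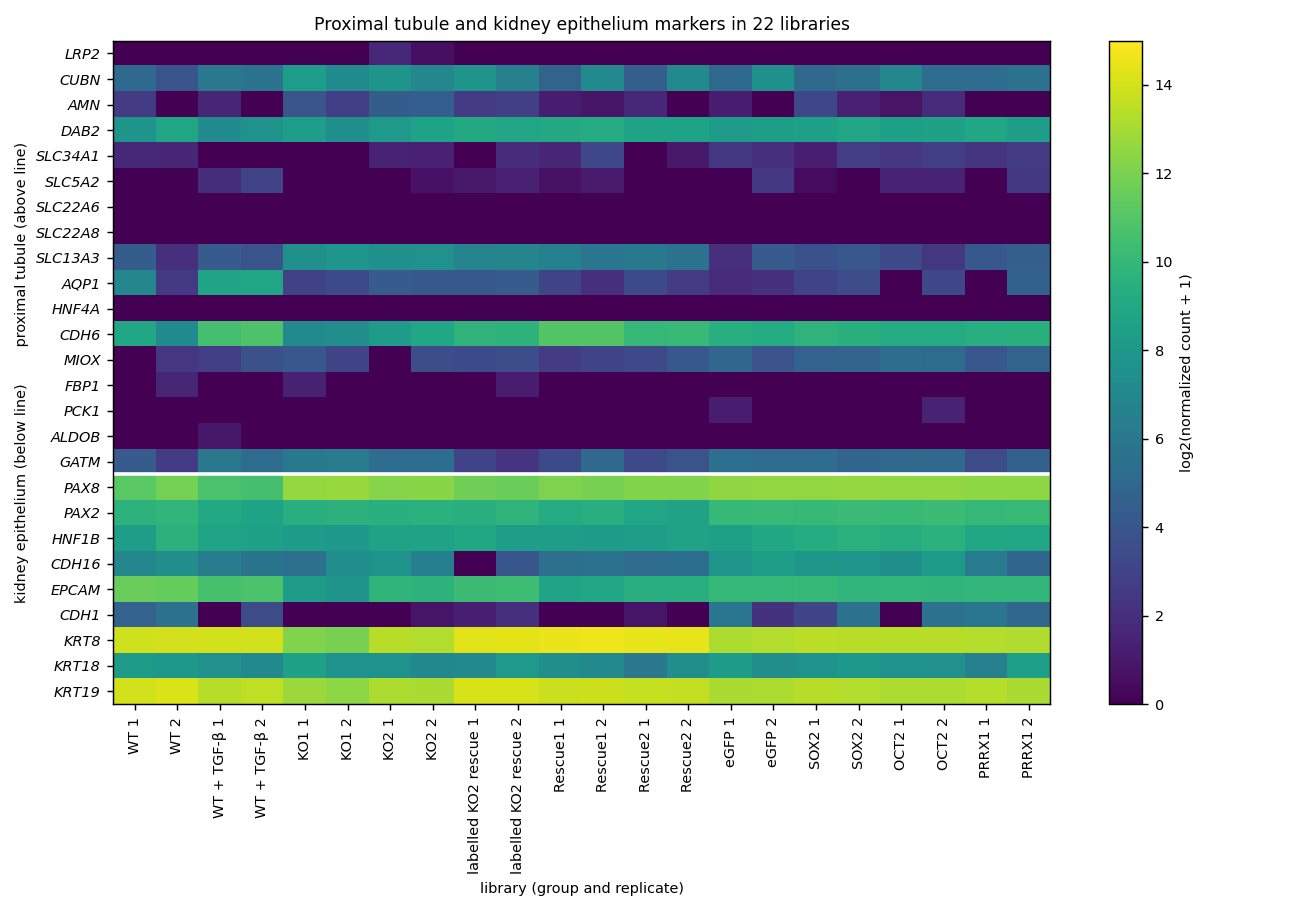
Log2(normalized count + 1) of proximal tubule markers (above the white line) and 9 kidney epithelium markers (below it) in the 22 libraries, 1 column per library. SLC22A6, SLC22A8 and HNF4A are at 0 throughout, and LRP2 does not exceed 2.29 normalized counts.

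GGT1 was measured in every library, from 224.6 to 1091 normalized counts with a median of 794. MME (34.4 to 880.2), DPP4 (listed at 0 to 629.9) and ANPEP (19.0 to 472) were also measured, with medians of 283, 103 and 29.2, and ALPL stayed between a listed 0 and 59.9. ENPEP exceeded 10 in 1 library, KO1 replicate 2 at 28.5, and was listed at 0 in both libraries of the labelled KO2 rescue, Rescue1, Rescue2 and PRRX1. ACE reached at most 7.73, in SOX2 replicate 2, and DPEP1 at most 5.94, in the labelled KO2 rescue replicate 2. These levels give no ratio for ACE and DPEP1, since only 7 libraries for ACE and 3 for DPEP1 were over 3 normalized counts.

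**Figure D2:**
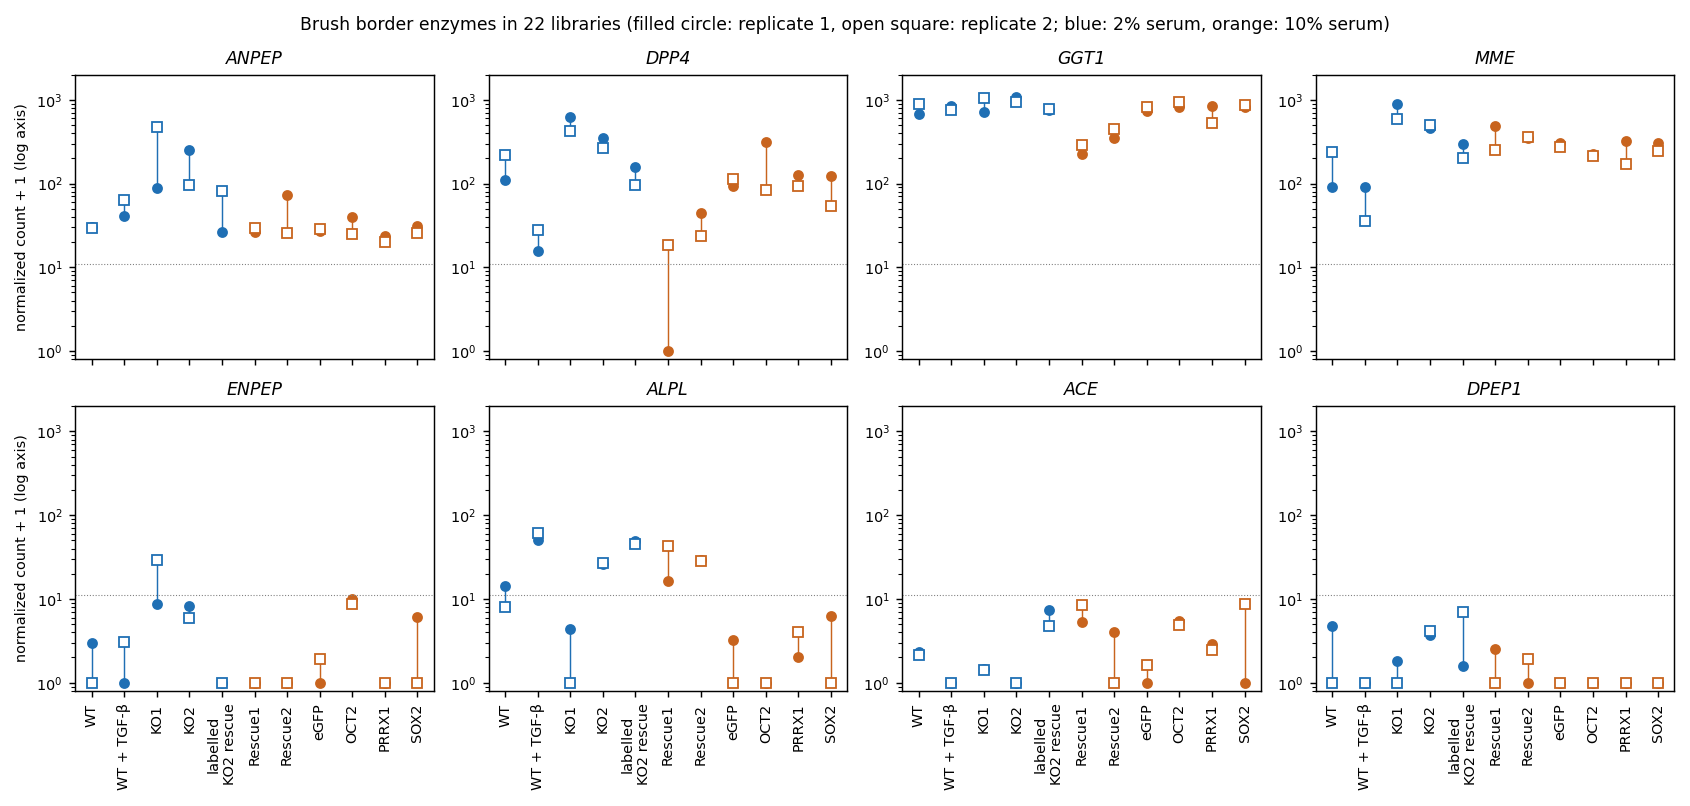
Normalized count + 1 (log axis) of each of the 8 members in each library by group, with a filled circle for replicate 1, an open square for replicate 2 and a line joining them; blue groups were in 2% serum and orange groups in 10% serum. The dotted line marks 10 normalized counts, which ENPEP passes in 1 library and ACE and DPEP1 in none.

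Both knockout clones had more ANPEP and MME than WT cells. ANPEP had 29.7 and 28.6 normalized counts in WT, 87.7 and 472 in KO1 and 252 and 93.8 in KO2. The groups did not overlap, but the duplicates of each clone were far apart, by 2.42 on the log2 scale in KO1 against a median of 0.453 for genes at 50 to 500 normalized counts. MME had 90.8 and 238 in WT, 880.2 and 592 in KO1 and 463 and 501 in KO2. All 4 KO libraries were above both WT libraries, which themselves differed by 1.38 on the log2 scale. Here and below, the share of all genes whose groups did not overlap was not taken, so such a gap sets no member apart.

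On the log2(normalized count + 1) scale, on which a change of 1 is a doubling and low values are understated, ANPEP was higher in KO1 by 2.77 (SE 0.75; limma adjusted p = 0.00828). In KO2 it was higher by 2.36 (SE 0.75; adjusted p = 0.0269). MME was higher by 2.29 in KO1 (SE 0.48; adjusted p = 0.0015) and by 1.70 in KO2 (SE 0.48; adjusted p = 0.015). A gene was called when its adjusted p over all tested genes was under 0.05 and its log2 change was over 1. By this rule 2 of the 5 tested members were higher in KO1, where 25% of the 14585 genes were called in either direction and 12% were higher, and 2 of 5 in KO2, where 16.3% were called and 9.02% were higher. Both clones were compared with the same 2 WT libraries. Without WT replicate 1 the changes in KO1 were 2.79 for ANPEP (adjusted p = 0.0354) and 1.60 for MME (adjusted p = 0.0284), and in KO2 they were 2.39 (adjusted p = 0.0846) and 1.01 (adjusted p = 0.186), so neither KO2 call held. The ANPEP call in KO1 ended without KO1 replicate 2 (1.56, adjusted p = 0.133), and that in KO2 also without KO2 replicate 1 (1.66, adjusted p = 0.226) or WT replicate 2 (2.34, adjusted p = 0.0959), and the MME call in KO2 without KO2 replicate 1 (1.76, adjusted p = 0.0567) or replicate 2 (1.65, adjusted p = 0.0731).

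DPP4 and GGT1 did not pass the test in either clone. The test takes 1 spread per gene from all 22 libraries. For DPP4 it includes the Rescue1 duplicates, which differed by 4.19 on the log2 scale, against 0.98 in WT, 0.57 in KO1 and 0.37 in KO2. In 9 other settings, among them a fit limited to the libraries compared, DPP4 was called in neither clone. The lowest limma adjusted p among them was 0.00363 in KO1, at a change under 1. DPP4 had 109 and 217 normalized counts in WT, 629.9 and 423 in KO1 and 344 and 267 in KO2, so the 4 KO libraries lay above both WT libraries. Its log2 change was 1.74 in KO1 (95% interval −0.36 to 3.84; adjusted p = 0.179) and 0.97 in KO2 (−1.13 to 3.07; adjusted p = 0.521). Without WT replicate 1 it was 1.25 (adjusted p = 0.482) and 0.48 (adjusted p = 0.84). GGT1 had 666 and 893 in WT, 711 and 1037 in KO1 and 1091 and 945 in KO2, and these groups overlapped in KO1 but not in KO2. Its 95% intervals ran from −0.32 to 0.63 in KO1 and from −0.08 to 0.87 in KO2. Without WT replicate 1 its changes were −0.06 and 0.19 (adjusted p = 0.906 and 0.687).

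ALPL was the only tested member that differed between the clones. It had 13.5 and 6.98 normalized counts in WT, 3.39 and a listed 0 in KO1 and 25.3 and 25.9 in KO2. KO1 lay below WT and KO2 above it, without overlap. KO1 was below KO2 on the log2 scale (−3.67, SE 0.91; adjusted p = 0.013), 1 of 5 tested members called where 6.97% of all genes were called and 4.49% were lower. Against WT the change of −2.36 in KO1 did not pass the test (adjusted p = 0.053). It was −1.93 (adjusted p = 0.223) without WT replicate 1 and −1.29 (adjusted p = 0.374) without KO1 replicate 2, and was called without KO1 replicate 1 (−3.43, adjusted p = 0.0161). The KO2 change of 1.31 did not pass either (adjusted p = 0.329), nor without WT replicate 1 (1.74, adjusted p = 0.318). The call between the clones ended without KO1 replicate 2 (−2.60, adjusted p = 0.126), KO2 replicate 1 (−3.68, adjusted p = 0.0589) or KO2 replicate 2 (−3.65, adjusted p = 0.0726), and its size depended on the constant added before the logarithm, −4.23 with 0.5 and −2.24 with 5.

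TGF-β, a cytokine that drives epithelial cells towards a mesenchymal state, changed no tested member by the call rule, in a comparison where limma called 7.84% of all genes. At an unadjusted p under 0.05 there were 3 of 5. For this and later counts at that limit the share of all genes was not taken, so they set no member apart. DPP4 had 14.6 and 26.6 normalized counts after TGF-β against 109 and 217 in WT, MME 89.4 and 34.4 against 90.8 and 238, and ALPL 49.2 and 59.9 against 13.5 and 6.98. DPP4 and ALPL did not overlap with WT, and MME in both treated libraries lay below WT, by little beside WT replicate 1. As above, the share of all genes that separated so was not taken. The spread used to test DPP4 again includes the Rescue1 duplicates, while the treated duplicates differed by 0.82 on the log2 scale. DPP4 was called lower in 3 of 9 other settings, but not in the fit limited to the libraries compared. The log2 changes were −2.90 for DPP4 (95% interval −5.00 to −0.80; adjusted p = 0.0556), −1.39 for MME (−2.42 to −0.35; adjusted p = 0.0635) and 2.36 for ALPL (0.41 to 4.32; adjusted p = 0.096). Without WT replicate 1 they were −3.39 (adjusted p = 0.0782), −2.08 (adjusted p = 0.0125) and 2.79 (adjusted p = 0.125), so MME passed. Without TGF-β replicate 1 MME also passed (−2.07, adjusted p = 0.0208). Without WT replicate 2 or TGF-β replicate 2 it was at −0.70 (adjusted p = 0.503) and −0.71 (adjusted p = 0.483). ANPEP, at 40.2 and 62.4, and GGT1, at 831 and 752, had intervals of −0.84 to 2.36 and −0.44 to 0.51, and without WT replicate 1 changes of 0.79 and −0.18 (adjusted p = 0.69 and 0.767).

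Set directly against each other, without the WT libraries, knockout and TGF-β-treated cells differed in 4 of the 5 tested members, where 20.2% of all genes were called, 10.3% higher and 9.83% lower. DPP4 was at 267 to 629.9 normalized counts in the 4 KO libraries and at 14.6 and 26.6 after TGF-β, a log2 difference of 4.26 (SE 0.85; adjusted p = 0.00103). MME was at 463 to 880.2 against 89.4 and 34.4, a difference of 3.38 (SE 0.42; adjusted p = 1.31e-05). These 2 peptidases kept their calls with each library left out and with either clone alone. ANPEP was higher by 1.80 (SE 0.65; adjusted p = 0.0414) and ALPL was lower in the knockout cells (−2.89, SE 0.79; adjusted p = 0.0098), but the ALPL difference was −4.72 for KO1 and −1.06 for KO2 alone (adjusted p = 0.441 for KO2), and that of ANPEP was 1.60 for KO2 alone (adjusted p = 0.131). Leaving out TGF-β replicate 1 ended both calls (ANPEP 1.49, adjusted p = 0.236; ALPL −3.03, adjusted p = 0.0502), as did leaving out TGF-β replicate 2 (2.11, adjusted p = 0.0888; −2.75, adjusted p = 0.0734), and the ANPEP call also ended without KO1 replicate 2 (1.20, adjusted p = 0.125) or KO2 replicate 1 (1.45, adjusted p = 0.126).

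**Figure D3:**
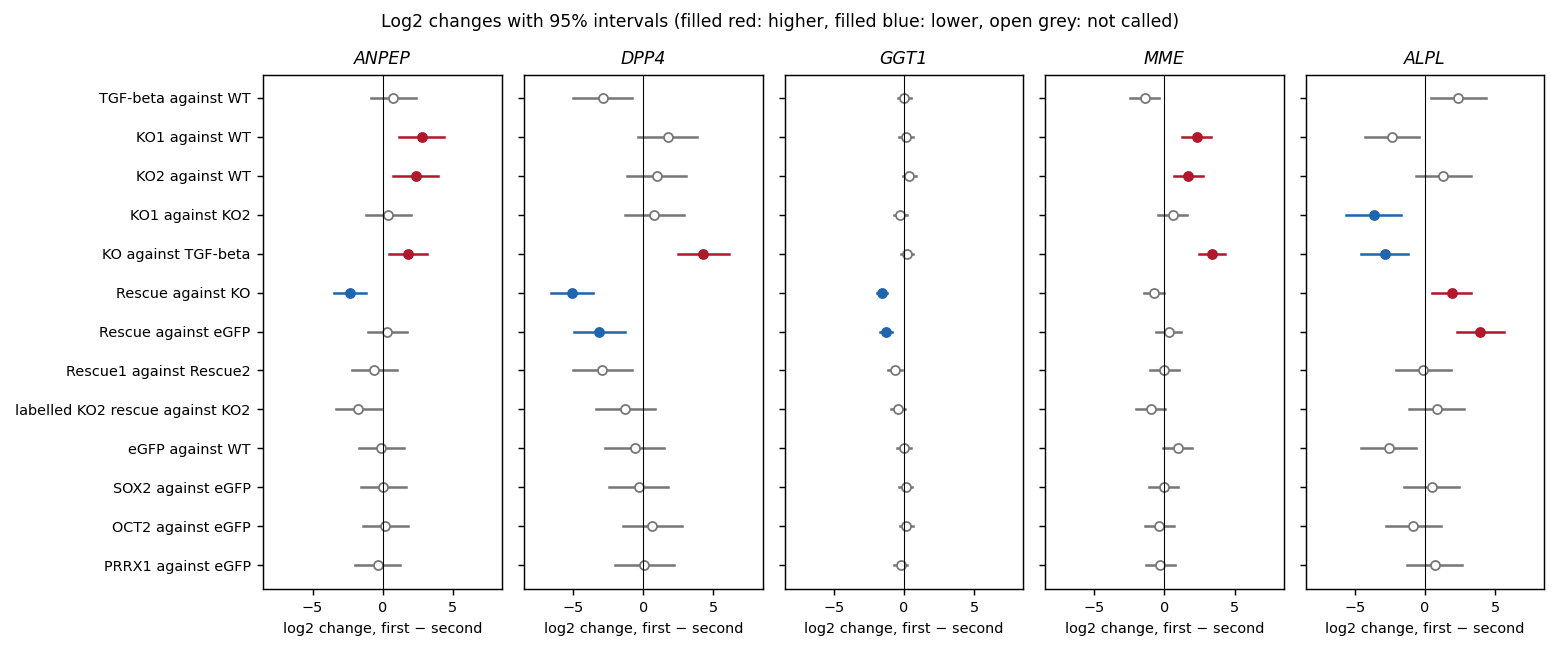
Log2 change (points) with 95% intervals (lines) of the 5 tested members in the 13 comparisons, filled red where called higher, filled blue where called lower and open grey where not called. DPP4 and GGT1 are called lower in the rescue clones against both the KO clones and eGFP cells, and ALPL higher, while the 3 comparisons of SOX2, OCT2 and PRRX1 with eGFP hold no call.

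The rescue clones, in which SETD2 was put back, differed from the KO clones in 4 of the 5 tested members, 3 lower and 1 higher. Of all genes 23.3% were called, 11.9% lower and 11.3% higher. The labels do not say which KO clone Rescue1 and Rescue2 came from, and they were set against the mean of KO1 and KO2. DPP4 was listed at 0 and had 17.3 normalized counts in Rescue1, and 43.0 and 22.4 in Rescue2, against 267 to 629.9 in the KO clones, and it was lower on the log2 scale (−5.08, SE 0.69; adjusted p = 2.56e-05). GGT1 had 224.6 and 285 in Rescue1 and 350.0 and 444 in Rescue2 against 711 to 1091, a change of −1.56 (SE 0.16; adjusted p = 1.18e-06). ANPEP had 25.6 and 28.8 in Rescue1 and 71.1 and 24.8 in Rescue2, all below the lowest KO library at 87.7, a change of −2.35 (SE 0.53; adjusted p = 0.00198). The 3 calls held with each library left out and against either KO clone alone.

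MME and ALPL moved otherwise. MME had 489 and 252 in Rescue1 and 349.8 and 354 in Rescue2, overlapping with KO2, and its change of −0.74 (95% interval −1.48 to −0.01) did not pass (adjusted p = 0.0902). ALPL had 15.3 and 42.0 in Rescue1 and 28.4 and 27.3 in Rescue2 and was higher by 1.89 (SE 0.65; adjusted p = 0.0268). Against KO1 alone the ALPL change was 3.72 (adjusted p = 0.00138), and against KO2 alone it was 0.05 (adjusted p = 0.974). That call was lost on leaving out any 1 of KO1 replicate 2 (1.35, adjusted p = 0.115), KO2 replicate 1 (1.88, 0.0609) or 2 (1.89, 0.0585), Rescue1 replicate 2 (1.54, 0.103), or Rescue2 replicate 1 (1.87, 0.0614) or 2 (1.90, 0.0586). The rescue clones were in 10% serum and the KO clones in 2% serum, so serum and SETD2 cannot be told apart in this comparison.

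The eGFP cells shared the serum of the rescue clones and had the SETD2 gene intact. Mean SETD2 was 3037 normalized counts in eGFP cells and 10205 in the rescue clones, higher there by 1.75 (limma adjusted p = 3.54e-11). The eGFP cells were themselves 0.64 above WT in SETD2 (limma adjusted p = 7.65e-06). Against the eGFP cells 3 of the 5 tested members were called in the rescue clones, where 13.1% of all genes were, 6.66% lower and 6.47% higher. DPP4 had 92.3 and 111 normalized counts in the eGFP cells, above all 4 rescue libraries, and was lower in the rescue clones (−3.13, SE 0.85; adjusted p = 0.0117). Without eGFP replicate 1 the value was −3.26 (adjusted p = 0.0648) and without replicate 2 it was −2.99 (adjusted p = 0.0776). Without Rescue1 replicate 1, listed at 0, the size fell to −2.08 (adjusted p = 0.0143). GGT1 had 727 and 827 in the eGFP cells and was lower (−1.29, SE 0.19; adjusted p = 0.000135), a call that held with each library left out. ALPL had 2.24 and a listed 0 in the eGFP cells, at or under 3 normalized counts, against 15.3 to 42.0, and was higher by 3.94 with 1 added before the logarithm (SE 0.79; adjusted p = 0.00153) and by 4.53 or 2.40 with 0.5 or 5 added. ANPEP (26.0 and 28.0 in eGFP cells) and MME (303 and 268) had intervals of −1.07 to 1.70 and −0.59 to 1.20. The rescue lines are single clones and the eGFP line is a bulk population under another antibiotic, so clone, selection and the level of SETD2 cannot be told apart here.

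The 2 rescue clones did not differ in any tested member by the call rule in limma. At an unadjusted p under 0.05, again without the share of all genes, there were 2 of 5. DPP4 was at −2.91 for Rescue1 against Rescue2 (95% interval −5.01 to −0.81; adjusted p = 0.225), and without Rescue1 replicate 2, which leaves the library listed at 0, at −5.00 (adjusted p = 0.00257). Without Rescue1 replicate 1, the library listed at 0, it was at −0.81 (adjusted p = 0.909). GGT1 did not overlap between the clones and was at −0.64 (−1.12 to −0.16; adjusted p = 0.255), where 0.994% of all genes were called. In the labelled KO2 rescue, with 159 and 96.0 normalized counts of DPP4, 298 and 201.1 of MME, 25.5 and 80.6 of ANPEP, 761 and 770.4 of GGT1 and 48.2 and 44.9 of ALPL, limma called 0 of 5 against KO2 and 4.17% of all genes. At an unadjusted p under 0.05, again without the share of all genes, there was 1 of 5, ANPEP at −1.74 (95% interval −3.33 to −0.14, limma adjusted p = 0.182).

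Cells carrying eGFP in 10% serum and WT cells in 2% serum were compared to see how far culture moved the members, although serum, vector and selection cannot be told apart. Of the 5 tested members limma called 0, against 12.7% of all genes. At an unadjusted p under 0.05, again without the share of all genes, there was 1. This was ALPL, at −2.58 (95% interval −4.53 to −0.62; adjusted p = 0.05001; −2.15 and 0.217 without WT replicate 1). It became called without eGFP replicate 1, which leaves a library listed at 0 (−3.43, adjusted p = 0.0439), and was −1.73 without eGFP replicate 2 (adjusted p = 0.3). MME was at 0.95 (adjusted p = 0.173), at 0.26 without WT replicate 1 (adjusted p = 0.797) and at 1.64 without WT replicate 2 (adjusted p = 0.0376).

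SOX2, OCT2 and PRRX1, transcription factors expressed one at a time in WT cells, gave no member a call against the eGFP cells. Limma called 0 of 5 in each comparison, at an unadjusted p under 0.05 also 0, where 0.0206%, 0.0343% and 0.0411% of all genes were called. The intervals were narrow for GGT1 (−0.35 to 0.61 for SOX2, −0.30 to 0.66 for OCT2 and −0.71 to 0.25 for PRRX1) and wide for DPP4 (−2.43 to 1.76, −1.45 to 2.75 and −2.02 to 2.18), so larger changes of DPP4 were within the error. The 2 OCT2 libraries had 309 and 82.5 normalized counts of DPP4 and the SOX2 libraries 121 and 53.1.

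Ordered by their mean over the 2 libraries, the groups formed a different series for each member. KO1 and KO2 were at the top for ANPEP, DPP4 and MME, the TGF-β-treated cells were lowest for MME and highest for ALPL, and Rescue1 was lowest for DPP4 and GGT1. Among the 10 steps between neighbours in each order, the lowest adjusted p was 0.131 for ANPEP, 0.11 for DPP4, 0.0635 for MME and 0.151 for ALPL. For GGT1 it was 0.0263, at the step of 0.75 from PRRX1 down to Rescue2. Over the 11 group means on the log2 scale, DPP4 and GGT1 had a Pearson correlation of 0.825, the highest between any pair of members, with Rescue1 lowest for both. For the 4 members with a mean of at least 50 normalized counts, likeness was ranked over the tested genes that have a symbol. Genes whose group means followed ANPEP most closely over the 11 groups included TFPI2 (r = 0.978) and TSPAN11 (0.973), those for DPP4 were AKR1C3 (0.955), POU3F3 (0.931) and LCA5L (0.93), those for GGT1 were OR7E104P (0.964), ARMCX4 (0.955) and ZNF35 (0.953), and those for MME included ZNRF1 (0.965) and SASH1 (0.942). These are descriptions from 11 points that share culture and normalization, taken as the highest among many genes.

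Other surface peptidases and ectoenzymes were a list of 49 genes, of which 22 were tested. Of these, 4 were higher and 1 lower in KO1, and 5 higher and 1 lower in KO2. Among all genes 12% were higher and 13.1% lower in KO1, and 9.02% and 7.29% in KO2. The median log2 change of the listed genes was 0.53 in KO1 and 0.76 in KO2, beside 0 and 0.003 over all genes tested. NT5E, the ectonucleotidase CD73, had 410 and 213 normalized counts in WT, 1071 and 1038 in KO1 and 675 and 741 in KO2, higher by 1.83 (adjusted p = 4.36e-05) and 1.25 (adjusted p = 0.00173). The KO2 change was not called without WT replicate 2 (0.78, adjusted p = 0.0283). CPD, a membrane carboxypeptidase, was called higher in both clones, with 1247 and 898 in KO1 and 1531 in both KO2 libraries, but its WT libraries had 7.91 and 561, too far apart to set a level. Without WT replicate 1 its changes were 0.92 and 1.45 (adjusted p = 0.193 and 0.0519). CPE and CPZ, both carboxypeptidases, were each called in 1 clone from WT libraries at or under 0.72: CPE had 48.5 and 16.6 in KO1, and CPZ had 67.3 and 64.2 in KO2.

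Of 30 genes for microvillus scaffold and bundling 19 were tested, with 4 higher and 7 lower in KO1 and 2 higher and 2 lower in KO2, medians of −0.79 and −0.21. Of all genes 12% and 13.1% were called so in KO1 and 9.02% and 7.29% in KO2. PDZK1, the apical scaffold that anchors transporters and exchangers, had 3256 and 3181 normalized counts in WT, 412 and 423 after TGF-β, 36.7 and 42.6 in KO1, 329.8 and 389 in KO2, 26.7 to 76.3 in the rescue clones and 1449 to 1719 in the eGFP, SOX2, OCT2 and PRRX1 cells. It was lower in KO1 (−6.31, SE 0.30; adjusted p = 3.66e-10), KO2 (−3.16, adjusted p = 1.34e-06), after TGF-β (−2.94, adjusted p = 8.66e-06) and in the rescue clones against eGFP (−4.83, adjusted p = 4.17e-09). Against the mean of the 2 KO clones the rescue clones were also lower (−1.09, limma adjusted p = 0.000646). Their libraries lay below those of KO2, while the KO1 libraries lay within the rescue range. MYO1D, a class I myosin, and PLS1, the bundling protein plastin 1, were called lower in KO1, at −4.18 and −4.36, and were at −2.38 and −1.64 in KO2 (adjusted p = 0.128 and 0.191). The MYO1D call in KO1 ended without WT replicate 1 (−3.02, adjusted p = 0.0898) or KO1 replicate 2 (−2.51, adjusted p = 0.111), and MYO1D was called in KO2 without KO2 replicate 2 (−3.70, adjusted p = 0.0481). MSN, moesin, was called higher in both clones from WT libraries listed at 0, to at most 15.3 normalized counts.

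Of 21 genes for peptide, amino acid and glutathione handling 15 were tested, with 3 higher and 3 lower in KO1 and 3 higher and 2 lower in KO2, medians of 0.12 and 0.07. The shares of all genes were 12% higher and 13.1% lower in KO1, and 9.02% and 7.29% in KO2. SLC7A11, which imports cystine for glutathione synthesis, had 1399 and 682 normalized counts in WT, 5313 and 6203 in KO1, 3854 and 4321 in KO2 and 2488 and 2828 after TGF-β, higher by 2.55 (adjusted p = 2.59e-07), 2.06 (adjusted p = 4.2e-06) and 1.44 (adjusted p = 0.000298). The last was at 0.92 and not called without WT replicate 2. GGCT, the cyclotransferase next in line after GGT1 in glutathione breakdown, was lower in KO1 (−2.28, SE 0.30; adjusted p = 2.1e-05), KO2 (−1.74, SE 0.30; adjusted p = 0.000384) and TGF-β-treated cells (−1.03, SE 0.30; adjusted p = 0.0262). The last call ended with any 1 of its 4 libraries left out (−0.98 to −1.09). GGT1 itself was not called in these comparisons. SLC3A1, the apical subunit of the cystine transporter, had 209.6 and 167 in WT, 4.61 and a listed 0 in KO1 and 64.5 and 106 in KO2, with changes of −6.31 (adjusted p = 1.46e-06) and −1.17 (adjusted p = 0.198). SLC15A4, a lysosomal peptide and histidine transporter, was higher by 1.83 and 1.44 in KO1 and KO2 (adjusted p = 1.72e-05 and 0.000248).

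In the angiotensin and kinin axis, whose peptides several members cleave, 10 of 20 genes were tested, with 3 higher and 2 lower in KO1 and 2 higher and 1 lower in KO2, medians of 0.57 and 0.46, against the same shares of all genes. BDKRB2, the B2 receptor for bradykinin, a substrate of ACE and neprilysin, had 201.9 and 201.7 normalized counts in WT, 21779 and 21034 in KO1, 7950 and 6855 in KO2, 88.4 and 68.2 after TGF-β and 738 to 949 in the rescue clones. It was higher by 6.72 in KO1 (SE 0.12; adjusted p = 7.86e-15) and by 5.19 in KO2 (adjusted p = 3.13e-13), and lower after TGF-β (−1.37, adjusted p = 1.87e-06) and in the rescue clones against the KO clones (−3.90, adjusted p = 4.62e-14). It was also lower in the labelled KO2 rescue than in KO2 (−2.75, adjusted p = 1.27e-09) and higher in eGFP than in WT cells (3.33, adjusted p = 6.48e-11). BDKRB1, the inducible B1 receptor, had 79.5 and 161 in KO1 and 62.2 and 37.3 in KO2 from 4.51 and 5.04 in WT, higher by 4.31 in KO1 (adjusted p = 0.0103), whereas the 3.09 of KO2 did not pass (adjusted p = 0.0691). The KO1 call ended without KO1 replicate 2 (3.80, adjusted p = 0.0694). NLN, the endopeptidase neurolysin, was lower in KO1 (−2.56, limma adjusted p = 3.56e-09) and at −0.82 in KO2, under the size needed for a call. CTSD, cathepsin D, was called higher in KO2 (1.36, limma adjusted p = 0.0413), where its libraries had 7396 and 3291, and was at 0.87 in KO1. The CTSD call in KO2 ended without KO2 replicate 1 (0.78) or WT replicate 2 (0.97).

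**Figure D4:**
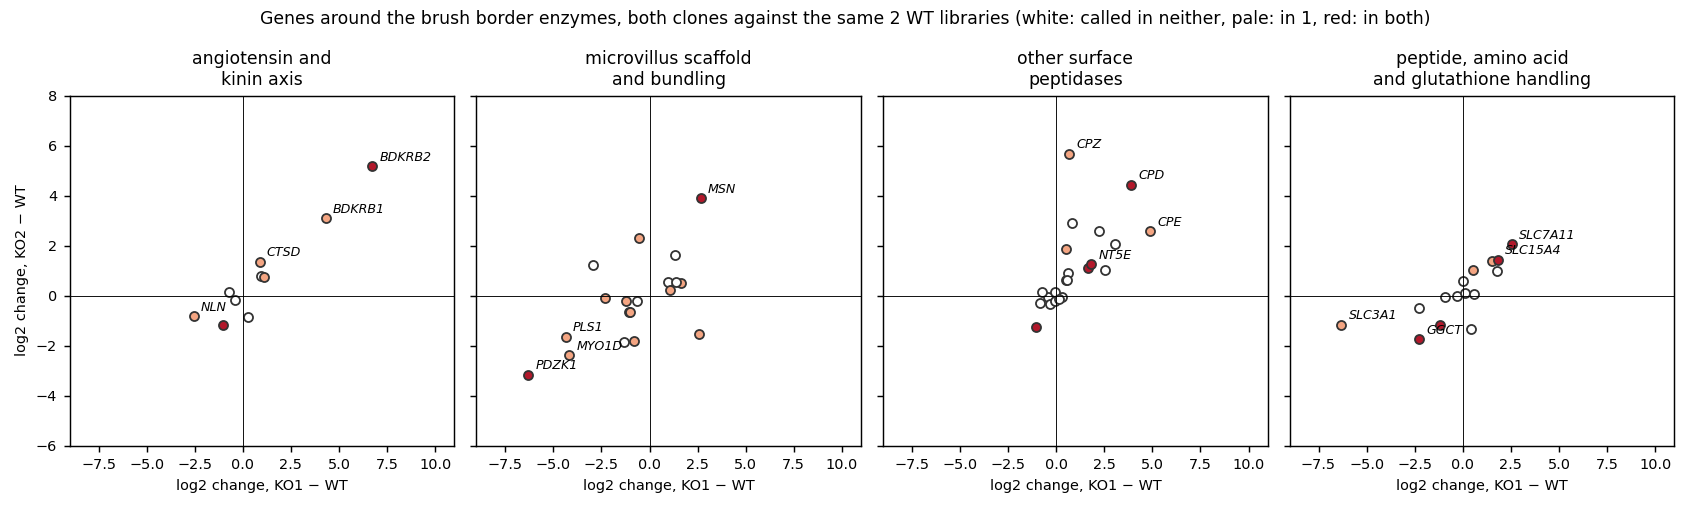
Log2 change in KO1 (horizontal axis) and KO2 (vertical axis), each against the same 2 WT libraries, for the tested genes of 4 lists, 1 point per gene, white where called in neither clone, pale where called in 1 and red where called in both. BDKRB2 lies at 6.72 and 5.19 and PDZK1 at −6.31 and −3.16, and both axes share the error of the WT libraries.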

How the data were processed

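RNA was sequenced from polyA-selected stranded libraries of 11 groups of 2 RPTEC samples. The authors quantified reads with salmon 1.9.0 on GRCh38 and used DESeq2 1.26.0, per the labels and methods, and deposited log2 values for 36859 genes; the transformation is not given in the sources used here. All libraries share 11.32 as lowest value and reach 21.28 at most, which fits a variance-stabilized scale, so values were inverted to normalized counts, and the size of 1 fragment per library was read from their steps.

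Tests used limma 3.58.1 in R 4.3.3 (moderated test with a variance trend, 1 fit over the 22 libraries, two-sided) on log2(normalized count + 1) for the 14585 genes that reached 10 normalized counts in 2 libraries or more, with Benjamini-Hochberg adjustment over all of them per comparison. A call needed an adjusted p under 0.05 and a log2 change over 1 in size. The procedure was tested on simulated data. A count model was not fitted, since counts were not analysed here. Figures were drawn with matplotlib 3.10.9.

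The members and gene lists were chosen with earlier results of these data known. All members were described, and list genes were named by the largest mean change in the 2 KO comparisons, up to 4 per list among those called. Likeness was ranked by Pearson correlation over the 11 group means. Some genes of the lists and rankings are not reported here. Other added constants, filters, scalings, sample sets and each library left out were tried.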

Additional observations from a re-analysis of the deposited data

Results flagged for a closer look

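ALPL was flagged because it differed between the 2 knockout clones, each of them 1 line. Its log2 change against WT was −2.36 in KO1 and 1.31 in KO2, and neither passed (limma adjusted p = 0.053 and 0.329). The difference between these changes, which is the comparison of KO1 with KO2, was −3.67 (limma adjusted p = 0.013). That call ended with KO1 replicate 2 or either KO2 library left out. Both KO1 libraries (3.39 normalized counts and a listed 0) were below both KO2 libraries (25.3 and 25.9), at levels where a few fragments decide the value. The groups hold 2 samples each, so no single library could be tested as standing apart.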

How the results depend on the processing

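Tested with other settings, the counts of called members stayed within 1.5 times of the values given in 105 of 121 cases. The 105 include counts that stayed at 0, as in all 9 settings each for SOX2, OCT2 and PRRX1 against eGFP, where almost no gene was called. After TGF-β the count went from 0 to 2 with a constant of 5, with a mean of at least 50 and when all libraries were given 1 common total. Of these 3 settings DPP4 was called lower in 3, MME lower in 2 and ALPL higher in 1. For eGFP against WT it went from 0 to 1 with a constant of 5 and with a common total. With the fit limited to the libraries compared it was 1 in KO1 and 0 in KO2 and between the clones (also 0 there with a mean of at least 50, which removes ALPL). KO2 alone against TGF-β gave 2. On the deposited log2 values, whose scale is compressed so that no member changed by over 1, it was 0 in KO1, in KO2, between the clones, against TGF-β and for the rescue clones against KO and eGFP. With no filter on low values, 6 members were called in the rescue clones against KO, where 3593 of 21519 genes were called. These 6 take in members that were otherwise too low to test. The common total moved the median of all genes by −0.40 in KO1, −0.21 in KO2, −0.20 after TGF-β and 0.38 for rescue against KO. The cause was not tested.

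Leaving out 1 library at a time gave counts of 0 to 1 after TGF-β, 1 to 3 in KO1, 0 to 1 in KO2, 0 to 1 between the clones, 2 to 4 for KO against TGF-β, 3 to 4 for rescue against KO, 2 to 3 for rescue against eGFP, 0 to 1 between the rescue clones and 0 to 1 for eGFP against WT. It turned 3 log2 changes of 0.5 or more in size, none of them called. These were ANPEP between the rescue clones (−1.36 to 0.13), DPP4 in OCT2 cells (−0.29 to 1.60) and ALPL in PRRX1 cells (−0.17 to 1.52). Of 25 smaller changes 16 turned under some setting.

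Same-numbered libraries did not deviate together (correlations of −0.082 to 0.047 over 55 pairs of groups), and the main fit held no term for the replicate number. These correlations cannot show whether same-numbered libraries shared a culture or preparation. With the replicate block 2 members were called in KO1, 2 in KO2, 1 between the clones, 3 for KO against TGF-β (ANPEP 1.80, limma adjusted p = 0.0507), 4 for rescue against KO, 3 for rescue against eGFP and 0 elsewhere.

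With 2 libraries a group, changes of low genes such as ALPL rest on few fragments, and ENPEP, ACE and DPEP1 were too low to test. Intervals cover the spread between these libraries.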
